A study of Mus musculus with 20 samples.

Results

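The transcripts of p53 and of 9 of its target genes were followed across 20 tumours of B16F10, a melanoma line from C57BL/6 mice. The 10 genes were taken by symbol from the deposited table of 32285 genes: Trp53, Cdkn1a, Mdm2, Ccng1, Eda2r, Bax, Bbc3, Phlda3, Zmat3 and Gdf15. All 10 were found and all 10 passed the filter on low counts. The tumours grew in immunocompetent C57BL/6 mice labelled wild type and fall into 4 groups of 5. Combination tumours received propafenone and anti-PD-1, propafenone tumours the drug, anti-PD-1 tumours that antibody, and IgG tumours control IgG, with the antibodies given into the peritoneum. Each sample label of the propafenone group names the drug alone, while the text on the design pairs propafenone with either antibody. Propafenone, a blocker of cardiac sodium channels, is given against arrhythmia. The antibody blocks PD-1, a receptor that holds T cells back. Treatment started when tumours had reached about 100 mm3, and all tumours were taken on day 16. The labels give neither the age or sex of the mice nor whether each tumour came from its own mouse, so p-values measure the spread between these tumours.

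The transcription factor p53 is kept low by Mdm2, a ubiquitin ligase that is itself made from a p53 target gene, and it accumulates when DNA damage or other stress frees it from Mdm2. It then binds paired copies of a short DNA element and raises genes that stop the cell cycle, such as Cdkn1a, and genes that promote apoptosis, such as Bax and Bbc3. Since p53 is controlled mainly at the level of the protein, the transcripts of its targets are commonly read as a gauge of its activity. Only RNA of whole tumour pieces was measured here, and in bulk tissue fewer cells of a type and less RNA per cell cannot be told apart.

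The DNA upstream of 2 of the genes carried the full p53 element, and these sequences are shown because both genes, Cdkn1a and Ccng1, passed the test in at least 1 of the comparisons that follow. RefSeq sequence of GRCm38.p6 was searched on both strands, from 250 bases before to 50 bases after each transcript start. The pattern was the p53 consensus of 20 bases, made of 2 adjoining 10-base elements, with at most 1 mismatch and no spacer. It was found in 22 of 32851 windows of this length (0.067%). Among the windows of the 10 genes it was found in 2 of 13, which cover 9 genes. In the sequences, capitals mark the 20-base element, each with 1 mismatch to the consensus, and the last base is the one before the transcript start given in GENCODE. The Cdkn1a sequence lies at chr17:29090729-29090975 on the plus strand, and its element begins 51 bases before the RefSeq start of that window. The window of another RefSeq start of Cdkn1a, further downstream at chr17:29093519-29093818, held neither the full element nor a 10-base element without mismatch. The Ccng1 sequence lies at chr11:40755312-40755536 and is written for the minus strand, with its element beginning 195 bases before the RefSeq start.
Cdkn1a: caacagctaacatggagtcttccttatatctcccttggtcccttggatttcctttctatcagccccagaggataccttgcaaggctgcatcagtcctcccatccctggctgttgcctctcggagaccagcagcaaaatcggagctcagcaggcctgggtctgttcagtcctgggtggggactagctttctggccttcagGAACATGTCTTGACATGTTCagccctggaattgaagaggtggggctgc
Ccng1: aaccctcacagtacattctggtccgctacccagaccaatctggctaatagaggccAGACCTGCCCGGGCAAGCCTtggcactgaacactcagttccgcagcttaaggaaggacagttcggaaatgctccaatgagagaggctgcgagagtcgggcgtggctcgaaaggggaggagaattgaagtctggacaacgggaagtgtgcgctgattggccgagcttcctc

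A single 10-base element with no mismatch was found in 5 of the 13 windows, against 2745 of 32851 windows over all genes (8.36%). Besides Cdkn1a and Ccng1 these belonged to Mdm2, Bax and Trp53 itself, and the elements are shown for comparison with the full ones.
Mdm2: GAACTTGCCT
Bax: AGGCAAGCTT
Trp53: GGACTTGCCC
The Mdm2 element begins 186 bases before the start on chromosome 10, the Bax element 201 bases before it on chromosome 7 and the Trp53 element 75 bases before it on chromosome 11. A match describes letters only, and elements outside these windows, in introns for example, were not searched.

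The counts are the authors' estimated reads per gene. They summed to 56.0 to 64.5 M (M, mega) per tumour, and levels are given as CPM, a count's level relative to its library total after TMM scaling. Melanocyte markers, which check the label of the line, summed to 23930 to 26470 CPM in combination tumours, 20740 to 27050 in propafenone tumours, 24520 to 30040 in anti-PD-1 tumours and 18730 to 26410 in IgG tumours. Of 18 skeletal muscle markers 18 had a log2 change above 0 in combination against IgG, and 8 passed the test. Their summed level ran from 63.0 to 709 CPM in combination tumours, 40.6 to 122 in propafenone tumours, 31.1 to 415 in anti-PD-1 tumours and 24.2 to 148.5 in IgG tumours. Of 16 macrophage and monocyte markers 10 were past the test and higher, with sums of 224.5 to 499 CPM in combination tumours, 67.4 to 218 in propafenone tumours, 134.5 to 249.9 in anti-PD-1 tumours and 44.0 to 202 in IgG tumours. In 5 tumours (propafenone 4 and 5, anti-PD-1 2, IgG 4 and 5) Hbb-bs, a haemoglobin gene, was above 1000 CPM. No marker of these lists was at 0 in every tumour.

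Trp53 RNA did not separate the groups. Trp53 lies on chromosome 11 (GRCm38, 69580359 to 69591873, plus strand; ENSMUSG00000059552). Combination tumours had 131, 139.6, 138, 136 and 134.6 CPM of Trp53, and propafenone tumours 161.6, 145, 123, 139 and 114. Anti-PD-1 tumours had 141, 161.6, 99.8, 150.0 and 131 CPM, and IgG tumours 139, 112, 145, 161.7 and 157. The 5 combination tumours lay inside the range of each of the other groups, and all ranges overlapped. Means were 136 ± 3.28, 137 ± 18.6, 137 ± 23.5 and 143 ± 19.6 CPM in combination, propafenone, anti-PD-1 and IgG tumours (SD, n = 5 each). The log2 change of combination against IgG was -0.07 ± 0.11 (SE), with an adjusted p of 0.74 in edgeR's quasi-likelihood test.

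Cdkn1a encodes p21, the inhibitor of cyclin-dependent kinases through which p53 halts the cell cycle. It had the largest decrease of the 10 genes in combination tumours. It lies on chromosome 17 (29090976 to 29100727, plus strand; ENSMUSG00000023067) and overlaps an exon of AC167363.2 on the opposite strand, whose reads cannot be told apart since strandedness is not given in the sources used here. Combination tumours had 179.7, 117, 190.3, 169 and 128.5 CPM of Cdkn1a, and propafenone tumours 344, 319, 940.2, 173 and 761. Anti-PD-1 tumours had 158, 224, 472, 177 and 405 CPM, and IgG tumours 391, 616, 553.5, 303 and 337. Every combination tumour was below every IgG tumour, while the combination range overlapped those of propafenone, through propafenone 4, and of anti-PD-1. Means were 157 ± 32.4 CPM in combination tumours, 507 ± 326 in propafenone tumours, 287 ± 142 in anti-PD-1 tumours and 440.2 ± 138 in IgG tumours (SD, n = 5 each). The spread within groups also differed, since the highest tumour had 1.63 times the CPM of the lowest in the combination group, 5.44 times in the propafenone group, 2.98 times in the anti-PD-1 group and 2.04 times in the IgG group.

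**Figure D1:**
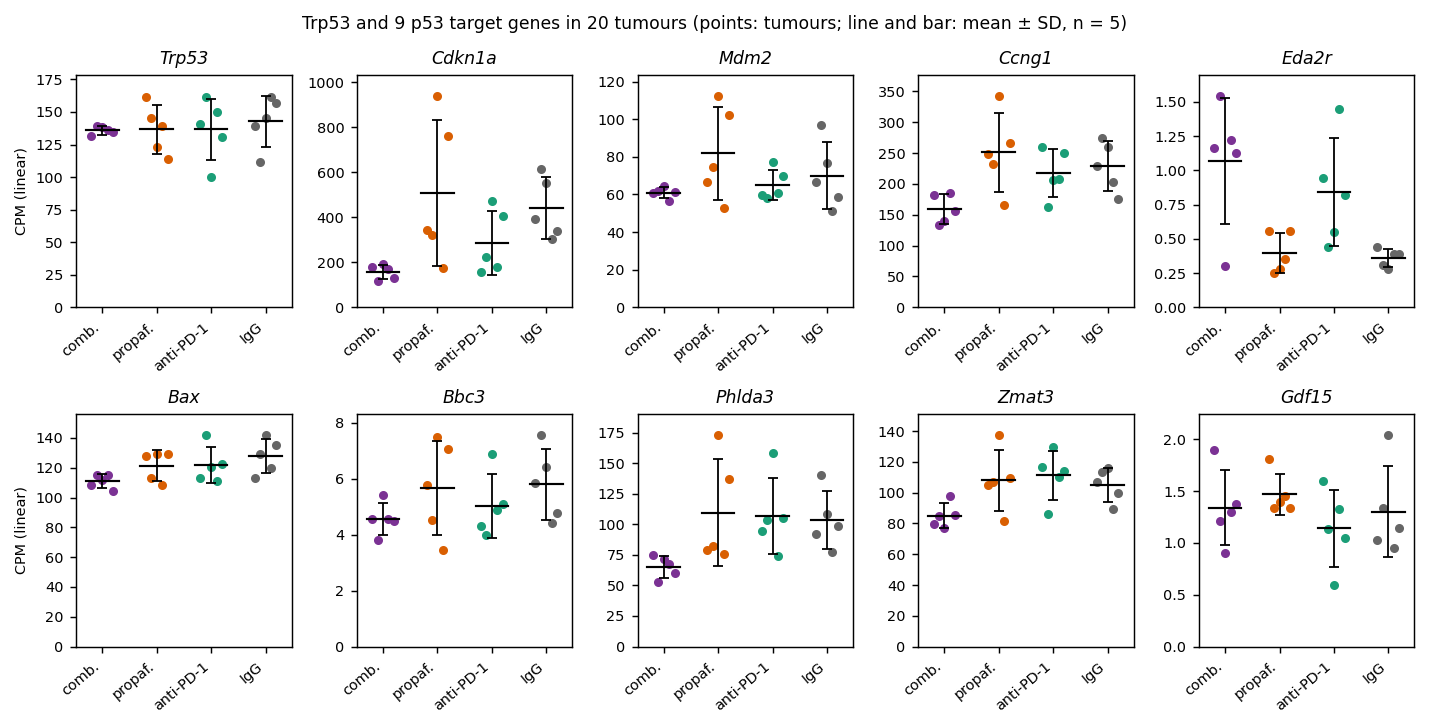
CPM of the 10 genes on linear axes from 0, with 1 point per tumour and the mean ± SD of each group of 5. Cdkn1a, Ccng1 and Phlda3 averaged lowest in combination tumours (157, 159 and 65.3 CPM), Eda2r averaged highest there (1.07 CPM), and Trp53 averaged 136 to 143 CPM in all groups.

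Against IgG, 2 of the 10 genes passed the test in combination tumours, Cdkn1a lower and Eda2r higher, where 4.88% of all 15875 genes tested passed it. In the lower direction the share of all genes was 2.63% and in the higher direction 2.24%, or 356 genes higher and 418 lower. With library totals in place of TMM scaling 368 were higher and 112 lower, with DESeq2 size factors 306 and 217. These 774 calls depended on single tumours: leaving out combination 1, 2, 3, 4 or 5 gave 190, 307, 366, 147 or 72, and leaving out IgG 1, 3 or 5 gave 202, 5 or 67, while the other 12 such fits had 582 to 1067. Cdkn1a changed by -1.49 ± 0.41 on the log2 scale (SE; adjusted p = 0.0461, edgeR's quasi-likelihood test over all genes). An exact two-sided permutation test on its mean log2 CPM gave p = 0.00794, the smallest value that 5 against 5 tumours allow. Groups that do not overlap, as for Cdkn1a and Phlda3, were seen in 7.21% of all genes in the lower direction. The Cdkn1a call lay near the threshold and held in 12 of 34 alternative fits. DESeq2 size factors, library totals, no filter, a stricter filter and both fits on log2 TPM did not give the call. It was lost in 14 of the 20 fits that left out 1 tumour (any combination or IgG tumour, propafenone 1, 2 or 5, or anti-PD-1 5), with adjusted p of 0.052 to 0.115 and log2 changes that stayed between -1.57 and -1.34 over all 20 fits. With the muscle score as a covariate the log2 change was -1.45 (adjusted p = 0.202), and with the macrophage score it was -1.51 (adjusted p = 0.586). In those 2 fits 7 and 0 of all genes passed, and within groups Cdkn1a had an r of -0.0655 with the muscle score (rho -0.173) and of -0.0431 with the macrophage score (rho -0.00752), with adjusted permutation p of 0.903 and 0.931 for r.

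Eda2r, a receptor of the TNF receptor family for ectodysplasin A2, was higher in combination tumours. It lies on the X chromosome (97333840 to 97377216, minus strand; ENSMUSG00000034457) and was the lowest of the 10 genes, with 16 to 98 counts per tumour. Combination tumours had 1.16, 1.55, 0.301, 1.22 and 1.13 CPM of Eda2r, and propafenone tumours 0.557, 0.252, 0.276, 0.351 and 0.554. Anti-PD-1 tumours had 0.943, 0.442, 0.549, 1.45 and 0.822 CPM, and IgG tumours 0.442, 0.307, 0.282, 0.392 and 0.387. In combination against IgG, 4 of 5 combination tumours were above all IgG tumours and combination 3 was inside their range. The log2 change was 1.56 ± 0.40 (SE; adjusted p = 0.0315, edgeR), and the exact permutation p was 0.0397. The call was lost in 8 of 20 fits without 1 tumour (combination 1, 2, 4 or 5, or IgG 1, 2, 3 or 5), with adjusted p of 0.0522 to 0.0892, and the log2 change ran from 1.40 to 1.80 over all 20.

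Markers of muscle and of other cell types were higher in the same comparison. Besides the muscle markers, 12 of 12 fibroblast markers were above 0 in combination against IgG, of which 5 passed, with sums of 622 to 1373 CPM in combination tumours and 194 to 604 in IgG tumours. Of 9 adipocyte markers tested 9 were above 0 and 1 passed, with sums of 36.2 to 76.3 CPM in combination tumours and 20.2 to 42.4 in IgG tumours. In propafenone against IgG 18 of 18 muscle markers were also above 0 (median log2 change 0.84, none past the test), where Eda2r was at 0.14 (adjusted p = 0.975, edgeR). Combination 3, the combination tumour with the lowest Eda2r, had a muscle marker sum of 63.0 CPM, where the other combination tumours had 533 to 709. With the muscle score as a covariate the Eda2r log2 change against IgG was 0.63 (adjusted p = 0.574), and with the macrophage score 1.97 (adjusted p = 0.586). Within groups its r with the muscle score was 0.541 (rho 0.352; adjusted permutation p = 0.109 and 0.334), and 0.159 without combination 3 and anti-PD-1 2, the tumours farthest from the median of Eda2r. With the adipocyte score it was 0.579 (rho 0.218; adjusted permutation p = 0.22 and 0.638), and -0.0818 without those 2 tumours, and with the fibroblast score -0.406 (rho -0.426; adjusted permutation p = 0.156 and 0.243). The part of fibroblast and adipocyte RNA in the Eda2r result was not tested. With the muscle score in the fit Ccng1 was at -0.74 and Phlda3 at -0.62 against IgG, beside -0.52 and -0.66 without it, and neither passed the test.

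**Figure D2:**
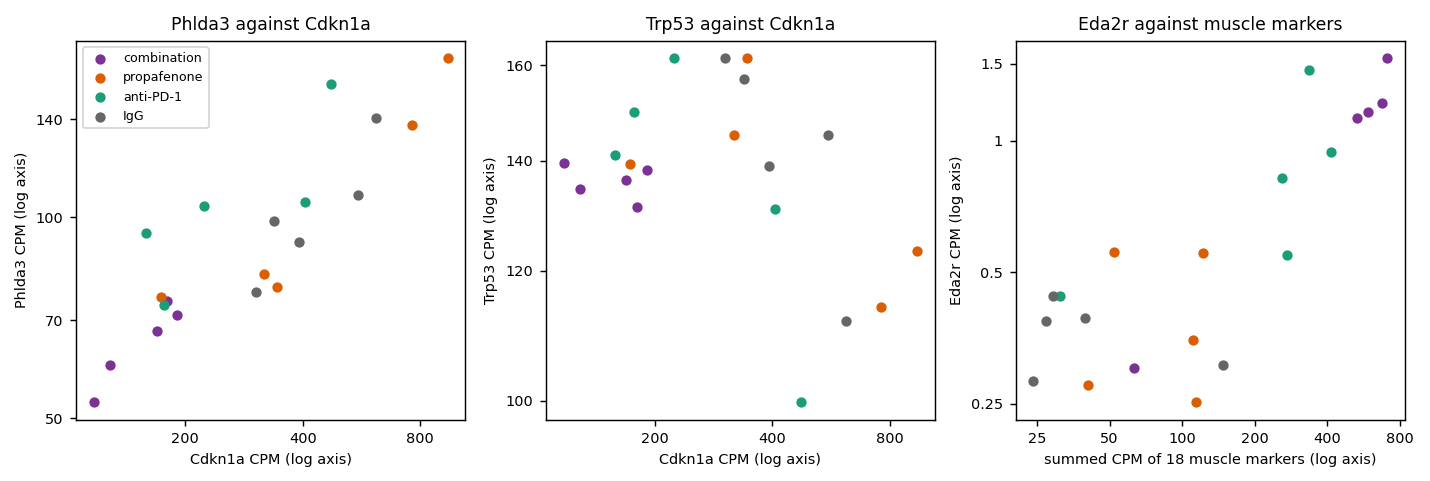
CPM of Phlda3 and of Trp53 against Cdkn1a, and of Eda2r against the summed CPM of 18 muscle markers, with 1 point per tumour and log scales on all axes. Phlda3 and Cdkn1a vary together, Trp53 is lowest (99.8 CPM) in anti-PD-1 3, where Cdkn1a was 472 CPM, and the combination tumour with the low muscle sum of 63.0 CPM lies among IgG tumours for Eda2r.

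The other 8 genes did not pass the test against IgG, and 7 of them had log2 changes below 0, where 8228 of all 15875 genes tested did. Ccng1, which encodes cyclin G1, a partner of the phosphatase PP2A that acts on Mdm2, changed by -0.52 ± 0.16 (adjusted p = 0.0678, edgeR). Combination tumours had 182, 133, 140.1, 184 and 157 CPM of Ccng1, propafenone tumours 249, 233, 343, 166 and 266, anti-PD-1 tumours 259, 162, 207, 208 and 250.2, and IgG tumours 229, 275, 259.9, 203 and 176. Combination 2, 3 and 5 were the lowest of the 20 tumours, while combination 1 and 4 lay above IgG 5, propafenone 4 and anti-PD-1 2, so that the combination range overlapped that of each other group.

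Phlda3, a small pleckstrin homology protein that restrains Akt signalling, changed by -0.66 ± 0.23 (adjusted p = 0.0928, edgeR; exact permutation p = 0.00794). Combination tumours had 74.9, 52.8, 71.3, 67.6 and 60.0 CPM of Phlda3, propafenone tumours 78.7, 82.3, 173, 75.9 and 137, anti-PD-1 tumours 94.6, 103.8, 158, 73.7 and 105, and IgG tumours 91.7, 140.5, 108, 77.1 and 98.8. The combination tumours lay below all propafenone and all IgG tumours, and overlapped the anti-PD-1 range through anti-PD-1 4. Zmat3, an RNA-binding zinc finger protein that acts on splicing, ran from 77.0 to 98.2 CPM in combination tumours and from 89.2 to 116 CPM in IgG tumours, a log2 change of -0.31 ± 0.12 (adjusted p = 0.121; exact permutation p = 0.0159).

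Mdm2, the apoptosis genes Bax and Bbc3, and Gdf15 did not pass the test either. Mdm2 ran from 56.4 to 64.6 CPM in combination tumours, 52.8 to 112.5 in propafenone tumours, 58.0 to 77.2 in anti-PD-1 tumours and 51.3 to 96.8 in IgG tumours, and its log2 change against IgG was -0.20 ± 0.17 (adjusted p = 0.508). Bax, which permeabilises the outer mitochondrial membrane, averaged 111 ± 4.54 CPM in combination tumours and 128 ± 11.6 in IgG tumours (SD, n = 5 each), a log2 change of -0.20 ± 0.08 (adjusted p = 0.111; exact permutation p = 0.0238). An exon of Bax overlaps Gm45808 on the same strand, so its counts may hold reads of both. Bbc3, which encodes Puma, a BH3-only activator of that pathway, ran from 3.82 to 5.42 CPM in combination tumours and from 4.43 to 7.57 CPM in IgG tumours, with a log2 change of -0.34 ± 0.20 (adjusted p = 0.318). Gdf15, a secreted stress cytokine, averaged 1.34 ± 0.36 CPM in combination tumours and 1.30 ± 0.44 CPM in IgG tumours, with a log2 change of 0.04 ± 0.27 (adjusted p = 0.945).

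At an unadjusted p under 0.05, 6 of the 10 genes (Cdkn1a, Eda2r, Bax, Phlda3, Zmat3 and Ccng1) differed between combination and IgG, where 23.6% of all genes did. DESeq2 called 4 of the 10, adding Phlda3 and Ccng1 to Cdkn1a and Eda2r, and limma voom called Cdkn1a alone, where they called 8.94% and 6.02% of all genes. When the fit held only the combination and IgG tumours 5 were called (Cdkn1a, Eda2r, Ccng1, Phlda3 and Zmat3), where 11.8% of all genes were. Without the 5 tumours high in Hbb-bs 3 were called (Cdkn1a, Ccng1 and Zmat3), where 6.03% of all genes were.

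**Figure D3:**
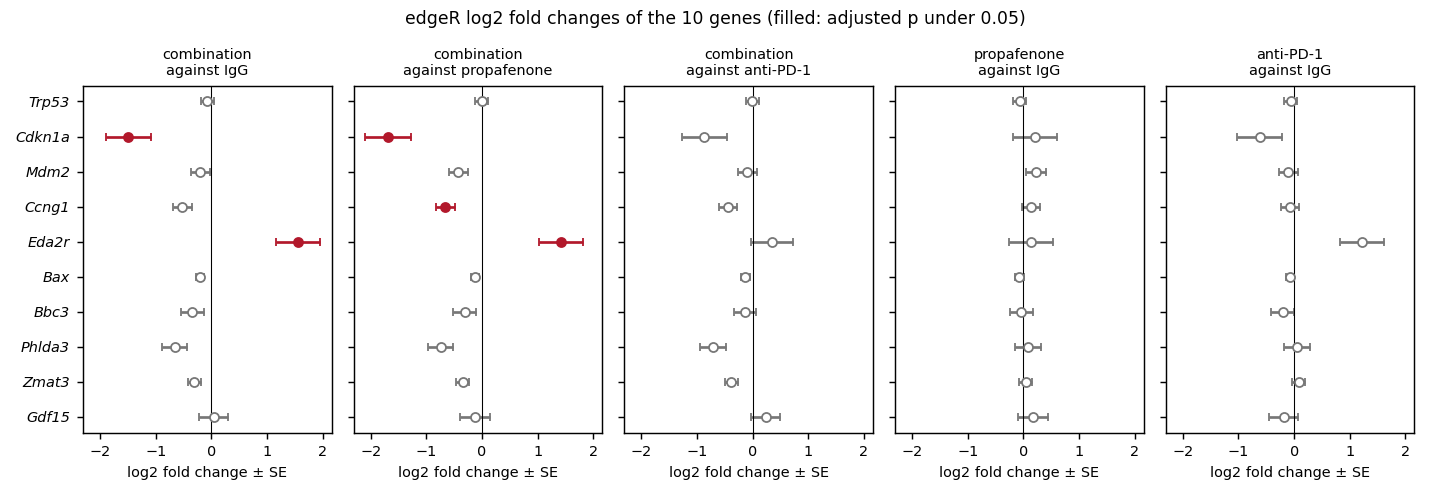
edgeR log2 fold changes ± SE of the 10 genes in 5 comparisons, filled red where the adjusted p was under 0.05. Calls stand in combination against IgG (Cdkn1a -1.49, Eda2r 1.56) and in combination against propafenone (Cdkn1a -1.69, Ccng1 -0.66, Eda2r 1.43), with none in the other 3 comparisons.

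Set against propafenone alone, combination tumours had 3 of the 10 genes called, where 3.88% of all genes passed the test (2.21% lower and 1.67% higher). Over all genes 265 were higher and 351 lower, and 258 and 89 with library totals in place of TMM scaling. These 616 calls also depended on single tumours: 4 were left without propafenone 3, 23 without propafenone 5, 230 without propafenone 1 and 27 to 133 without any 1 combination tumour, against 1882 without propafenone 4. Counts were 959 without anti-PD-1 2, 392 without IgG 4, 405 without IgG 5 or anti-PD-1 5, and 419 to 718 in the other 7 fits. This comparison asks what the antibody adds to the drug, and it shares the combination tumours with the comparison against IgG. Cdkn1a changed by -1.69 ± 0.41 (adjusted p = 0.0357, edgeR), Ccng1 by -0.66 ± 0.16 (adjusted p = 0.0365) and Eda2r by 1.43 ± 0.39 (adjusted p = 0.0473). Phlda3 changed by -0.74 ± 0.23 (adjusted p = 0.0658), with no overlap between the groups, as for 4.88% of all genes in the lower direction. At an unadjusted p under 0.05, 6 of the 10 (these 4 with Mdm2 and Zmat3) differed in edgeR, where 23.2% of all genes did. Mdm2 at -0.43 ± 0.17 (adjusted p = 0.149) and Zmat3 at -0.35 ± 0.12 (adjusted p = 0.0883) did not pass, and Trp53 was at -0.01 ± 0.11 (adjusted p = 0.978).

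The propafenone group was not uniform in these genes. Propafenone 3 and 5 had 940.2 and 761 CPM of Cdkn1a, 112.5 and 102 CPM of Mdm2 and 173 and 137 CPM of Phlda3, the highest pair of the group for each. Propafenone 4 had 173 CPM of Cdkn1a, 52.8 of Mdm2 and 75.9 of Phlda3, the lowest of the group for each. Without propafenone 4, 6 genes were called (Mdm2, Phlda3 and Zmat3 in addition, with Cdkn1a at -1.92), where 11.7% of all genes were, and without propafenone 3 the Cdkn1a value was -1.34 with an adjusted p of 0.163. Cdkn1a lost its call in 7 of 20 such fits (any combination tumour, propafenone 3 or 5), Ccng1 in 8 (any combination tumour, propafenone 1, 3 or 5; -0.77 to -0.50) and Eda2r in 14, with adjusted p of 0.0524 to 0.171 (combination 1, 2, 4 or 5, propafenone 1, 2, 3 or 5, anti-PD-1 1 or 5, IgG 1, 3, 4 or 5). With the muscle score in the fit Ccng1 alone was called, at -0.79 (adjusted p = 0.0242), where 5.37% of all genes were. With the macrophage score none was, and 2 of all genes were.

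Set against anti-PD-1 alone, which asks what the drug adds to the antibody, none of the 10 genes passed in edgeR, and neither did any other gene (0.0%). Over all genes 7 were called by DESeq2, 2 by limma on log2(TPM + 1) and 0 by limma voom. Cdkn1a was at -0.87 ± 0.40 (adjusted p = 0.497), Phlda3 at -0.71 ± 0.23, Ccng1 at -0.45 ± 0.16 and Zmat3 at -0.39 ± 0.12 (adjusted p = 0.445 for each of these 3). At an unadjusted p under 0.05 these 4 differed in edgeR, as did 9.78% of all genes, and with adjustment DESeq2 called none of the 10. Eda2r, called against IgG and against propafenone, was at 0.35 ± 0.38 here (adjusted p = 0.772).

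Neither single treatment had a gene called against IgG in edgeR, among the 10 or among all genes (0.0% each). Over all genes DESeq2 called 3 for propafenone and 21 for anti-PD-1, none of them among the 10, and limma voom 0 for each, while edgeR without the 5 tumours high in Hbb-bs called 13 for anti-PD-1. For propafenone against IgG the 10 log2 changes ran from -0.07 to 0.22, with Cdkn1a at 0.21 ± 0.40 (adjusted p = 0.966). None of the 10 reached an unadjusted p under 0.05 in edgeR, DESeq2 or limma voom, where 4.75% of all genes did in edgeR. For anti-PD-1 against IgG, Cdkn1a was at -0.62 ± 0.40 (adjusted p = 0.783) and Eda2r at 1.21 ± 0.40 (adjusted p = 0.49). Every anti-PD-1 tumour had at least as much Eda2r as the highest IgG tumour, 0.442 to 1.45 against 0.282 to 0.442 CPM, an absence of overlap seen in 0.454% of all genes in the higher direction. For Eda2r it was close to a tie, with anti-PD-1 2 at 0.4418 CPM (23 counts) and IgG 1 at 0.4417 CPM (27 counts). In TPM the 2 groups overlapped, with 0.165 in anti-PD-1 2 and 0.227 in IgG 1. Eda2r was the 1 gene of the 10 at an unadjusted p under 0.05 there, in edgeR, DESeq2 and limma voom, where 7.58% of all genes were in edgeR. Muscle markers moved in the same direction, with 18 of 18 above 0 and none past the test.

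The interaction, what the combination shows beyond both single treatments added together in log2 units, was called in edgeR for none of the 10 genes and for no other gene (0.0%), while DESeq2 called 2 genes, neither among the 10, and limma voom 0. Its log2 values were -1.08 ± 0.57 for Cdkn1a, -0.80 ± 0.32 for Phlda3, -0.59 ± 0.23 for Ccng1 and -0.43 ± 0.17 for Zmat3, each with an adjusted p of 0.99. Phlda3, Ccng1 and Zmat3 reached an unadjusted p under 0.05 in edgeR, DESeq2 and limma voom, and 3.04% of all genes did in edgeR.

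Ordered by mean CPM, neighbouring groups overlapped in their ranges for every gene except Phlda3, where combination lay below IgG without overlap. For Cdkn1a the order was propafenone, IgG, anti-PD-1 and combination, and the gap between IgG and anti-PD-1 was larger than the larger SD of the pair. Combination had the lowest mean CPM of the 4 groups for Trp53, Cdkn1a, Mdm2, Ccng1, Bax, Bbc3, Phlda3 and Zmat3, and the highest for Eda2r. For Trp53, Cdkn1a, Mdm2, Bbc3 and Eda2r the gap to the next group was within the larger SD of the pair. By mean TPM combination was instead highest for Trp53 (160.9, against 151.9 to 158.5). Mdm2 was then lowest in anti-PD-1 tumours (46.19, against 46.49 in combination tumours). How often combination had the lowest mean over all genes was not counted. Per length, as mean TPM over 20 tumours, Cdkn1a was the most abundant of the 10 at 384, followed by Bax at 267, Trp53 at 157, Phlda3 at 139.6 and Ccng1 at 128. Mdm2 had 50.8 TPM, Zmat3 27.9, Bbc3 6.55, Gdf15 1.79 and Eda2r 0.315.

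Within groups, several of the targets varied together from tumour to tumour. Log2 CPM with the group means removed was correlated over the 20 tumours for all 45 pairs, with permutation within groups and adjustment over the 45. Of these, 30 were positive and 17 passed by r (17 by rho, 15 by both), all of them between Trp53, Cdkn1a, Mdm2, Bbc3, Phlda3, Zmat3 and Ccng1. Cdkn1a and Phlda3 had a Pearson's r of 0.892 and a Spearman's rho of 0.905 (permutation p = 1e-05 for both, the smallest that the resampling can give, adjusted p = 0.0003 and 0.00045). Cdkn1a and Bbc3 had an r of 0.893 and a rho of 0.856 (permutation p = 3e-05 and 9e-05, adjusted p = 0.000338 and 0.00203), and Cdkn1a and Mdm2 an r of 0.877 and a rho of 0.83 (permutation p = 2e-05 and 0.00048, adjusted p = 0.0003 and 0.0072). Without propafenone 3 and 4, the 2 tumours farthest from the median of Cdkn1a, r was 0.867 with Phlda3, 0.831 with Bbc3 and 0.789 with Mdm2, and all 3 still passed.

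The 6 pairs among Cdkn1a, Mdm2, Bbc3 and Phlda3 were the pairs that passed with the 2 farthest tumours left out. The other 11 did not pass then, although r kept its sign, at 0.381 to 0.657 for 7 pairs and -0.697 to -0.576 for the 4 with Trp53. These values kept the group means of all tumours, so differences between groups were not fully removed from them. Fewer tumours also allow fewer permutations within groups. For both reasons the lost calls cannot tell how far the 11 pairs rested on those 2 tumours. Among these, Ccng1 and Zmat3 had an r of 0.803 and a rho of 0.744 (permutation p = 0.00083 and 0.00102, adjusted p = 0.00467 and 0.0072), and an r of 0.657 without propafenone 3 and 4. Bax, Eda2r and Gdf15 were in no pair that passed.

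Trp53 RNA varied against 4 of the 9 targets. Its r was -0.781 with Phlda3 (rho -0.765; permutation p = 0.00111 and 0.00108; adjusted p = 0.00513 and 0.0072), and -0.742 with Mdm2 (rho -0.802; permutation p = 0.00083 and 0.00078; adjusted p = 0.00467 and 0.0072). With Bbc3 it was -0.707 (rho -0.716; permutation p = 0.00319 and 0.00309; adjusted p = 0.012 and 0.0114) and with Cdkn1a -0.685 (rho -0.768; permutation p = 0.00427 and 0.00208; adjusted p = 0.0148 and 0.00936). Anti-PD-1 3 and IgG 2 had the least Trp53 RNA (99.8 and 112 CPM). With group means of all tumours kept, r without them was -0.686, -0.697, -0.576 and -0.634 for these 4 genes, none of which passed. With Zmat3 it was -0.565 (rho -0.63; adjusted permutation p = 0.0687 and 0.0255) and with Ccng1 -0.435 (rho -0.537; adjusted permutation p = 0.182 and 0.0737). With Bax, Eda2r and Gdf15 r was 0.018, 0.114 and 0.343, and none of the 3 passed.

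**Figure D4:**
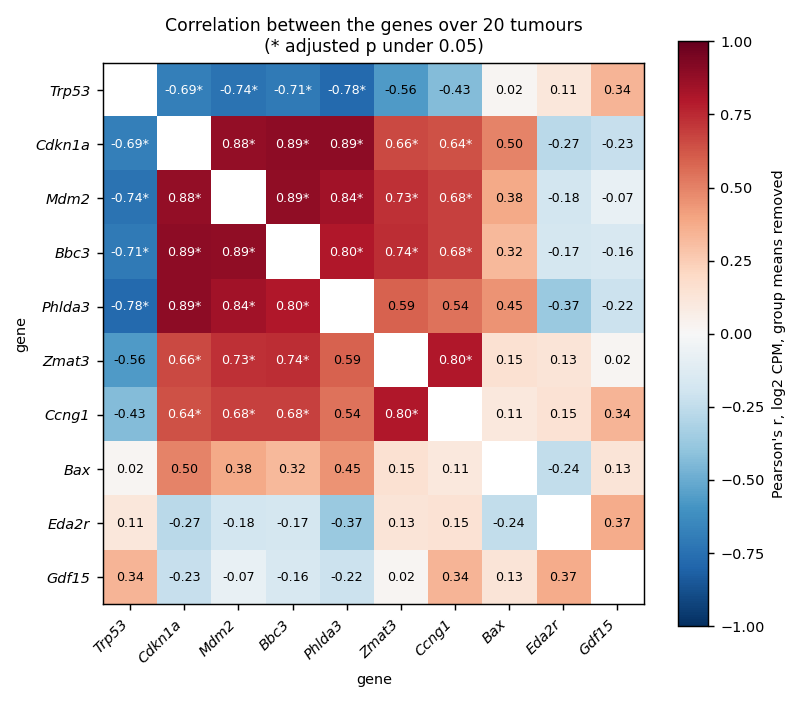
Pearson's r between the 10 genes over 20 tumours, on log2 CPM with group means removed, with a star where the adjusted permutation p was under 0.05. Cdkn1a, Mdm2, Bbc3 and Phlda3 have values of 0.80 to 0.89 with each other and of -0.78 to -0.69 with Trp53. Ccng1 and Zmat3 have 0.80 with each other, and -0.435 and -0.565 with Trp53, both without a star.

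The genes whose pattern was most like that of Cdkn1a within groups, among 11677 genes with a mean of at least 1 CPM, were Usp3 (r = 0.968), Uaca (0.956), Fam117b (0.956), Rnf217 (0.952) and Btbd1 (0.951). Of the other 9 genes, Bbc3 ranked 44, Phlda3 45 and Mdm2 76 in likeness to Cdkn1a. Fam117b and Rnf217 passed the test in combination against IgG (log2 changes of -0.97 and -0.89, adjusted p = 0.0437 and 0.032, edgeR). The genes most like Trp53 were Numa1, a spindle pole protein (r = 0.941), Fads2, a fatty acid desaturase (0.937), Spout1 (0.934), Tti1 (0.93) and Cdc23, a subunit of the anaphase-promoting complex (0.93). None of these 5 passed in combination against IgG, with log2 changes of -0.07 to 0.10. These likenesses are descriptions over 20 tumours that share their libraries between genes.

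A further 40 genes known as p53 targets were examined as a list, of which 39 were tested. In combination against IgG 30 were below 0 and 9 above, with a median log2 change of -0.20, where the median of all genes was -0.01. With library totals in place of TMM scaling 28 were below 0 and 11 above, with a median of -0.14, and that scaling moved the median of all genes to 0.07. Of the 39, 0 rose and 2 fell past the test. Rps27l, a ribosomal protein paralogue induced by p53, averaged 107 ± 7.41 CPM in combination tumours and 139 ± 6.63 in IgG tumours (SD, n = 5 each), a log2 change of -0.37 ± 0.07 (adjusted p = 0.0128, edgeR). Gls2, the mitochondrial glutaminase, averaged 3.29 ± 0.82 CPM in combination tumours and 5.90 ± 0.33 in IgG tumours, a log2 change of -0.84 ± 0.21 (adjusted p = 0.0299). Trp73, the untested member, had at most 12 counts in any tumour.

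The full p53 element was found in 2 of the 42 windows of these genes, upstream of Rps27l and at the start of Gtse1. These windows cover 30 of the 40 genes, and the others were not searched. The Rps27l element, with 1 mismatch, begins 117 bases before the start, and 10 bases on each side are shown from chr9:66946286-66946325 on the plus strand, for comparison with those of Cdkn1a and Ccng1.
Rps27l: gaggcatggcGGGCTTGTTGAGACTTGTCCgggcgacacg
Gtse1, named after its element was seen, encodes a mitotic protein that binds p53. It averaged 73.7 ± 4.48 CPM in combination tumours and 92.3 ± 19.4 in IgG tumours (log2 change -0.33 ± 0.14, adjusted p = 0.151, edgeR). A single element was found in 10 of these 42 windows.

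Against propafenone, the same list again had 30 genes below 0 and 9 above, with a median of -0.28, where the median of all genes was -0.01. Named after their values were seen, Polk, a translesion DNA polymerase, fell by 0.49 on the log2 scale, averaging 17.9 ± 1.08 CPM in combination tumours and 25.2 ± 4.82 in propafenone tumours (adjusted p = 0.0489, edgeR). Sesn1, a sestrin that restrains mTORC1, rose by 0.40, averaging 17.2 ± 1.34 CPM in combination tumours and 13.1 ± 1.54 in propafenone tumours (adjusted p = 0.048). Against anti-PD-1 30 were below 0 and 9 above as well, with a median of -0.17 and none past the test. For propafenone against IgG the median was 0.05 and for anti-PD-1 against IgG -0.04, with none past the test.

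Genes upstream of p53 showed no call. Of 22 regulators 21 were tested, 10 above and 11 below 0 in combination against IgG, with a median of -0.03 (12 above and 9 below 0, median 0.04, with library totals). The smallest p-values belonged to Ppp1r13l, an inhibitor of p53 in the ASPP family, at -0.62 ± 0.18 (adjusted p = 0.0526, edgeR), and Trp63, a p53 relative of stratified epithelium, at 3.71 ± 1.29 (adjusted p = 0.0924) from levels of 0.0634 to 0.532 CPM in combination tumours and 0 to 0.0807 CPM in IgG tumours. Cdkn2a, whose p19Arf product inhibits Mdm2, was below the filter, with 3 to 15 counts in combination tumours, 0 to 12 in propafenone tumours, 4 to 11 in anti-PD-1 tumours and 0 to 9 in IgG tumours. It had 0 counts in 4 of the 5 IgG tumours.

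Among cell cycle genes that p21 and the DREAM complex repress, no gene passed the test where Cdkn1a fell. All 25 were tested, 13 above and 12 below 0 in combination against IgG, with a median of 0.04 and none past the test. The split moved with the scaling, to 22 above and 3 below with library totals (median 0.11) and 19 above and 6 below with DESeq2 size factors (median 0.06). Bub1b, a spindle checkpoint kinase, was at 0.22 ± 0.13 (adjusted p = 0.194, edgeR), with 114 ± 4.77 CPM in combination tumours and 97.7 ± 13.7 in IgG tumours. Mki67, the proliferation marker, was at 0.44 ± 0.28 (adjusted p = 0.228), with 266 ± 27.7 CPM in combination tumours and 197 ± 30.4 in IgG tumours. Against anti-PD-1 24 of the 25 were above 0, with a median of 0.10 and none past the test. Within groups the score of this list, its mean log2 CPM, ran against Cdkn1a over the 20 tumours, with an r of -0.734 and a rho of -0.823 (permutation p = 0.00233 and 0.00061, adjusted over 140 relations 0.0297 and 0.0142). Without propafenone 3 and 4 the r was -0.842.

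Of those 140 relations, 10 genes against 14 list scores, 12 passed by r, 12 by rho and 10 by both. By rho alone these were Eda2r with the BCL2 family (-0.689, adjusted permutation p = 0.0261; r = -0.564, 0.0632) and Bbc3 with the integrated stress response (0.701, 0.0466; r = 0.635, 0.0632). Cdkn1a followed the other p53 targets with an r of 0.907 and a rho of 0.928 (permutation p = 1e-05 and 2e-05, adjusted p = 0.0014 and 0.0021), and 0.871 without propafenone 3 and 4. Bbc3, Phlda3 and Mdm2 followed the same list, with r of 0.908, 0.849 and 0.826 (rho 0.893, 0.821 and 0.8) and adjusted permutation p of 0.0021, 0.0084 and 0.0103 for r and 0.0021, 0.00875 and 0.0152 for rho. Trp53 ran against that list, with an r of -0.769 and a rho of -0.791 (adjusted permutation p = 0.0297 and 0.0152), and an r of -0.62 without anti-PD-1 3 and IgG 2. Phlda3 also passed with the BCL2 family (r = 0.663, rho 0.659; adjusted permutation p = 0.0297 and 0.0466) and against the cell cycle list (r = -0.692, rho -0.705; adjusted permutation p = 0.0359 and 0.0328). Melanocyte markers ran against Mdm2 (r = -0.844, adjusted permutation p = 0.0084), Bbc3 (-0.797, 0.0116), Zmat3 (-0.774, 0.0084) and Cdkn1a (-0.734, 0.0191). By rho Mdm2 (-0.875, adjusted permutation p = 0.00513) and Zmat3 (-0.77, 0.00952) passed with melanocyte markers, while Bbc3 (-0.687) and Cdkn1a (-0.674) had an adjusted p of 0.0598. Without the 2 farthest tumours the r with melanocyte markers was -0.802 for Mdm2, -0.69 for Bbc3, -0.684 for Zmat3 and -0.634 for Cdkn1a. No gene of the 10 passed with the muscle, macrophage, T cell, fibroblast, endothelium, keratinocyte, adipocyte or red blood cell scores.

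**Figure D5:**
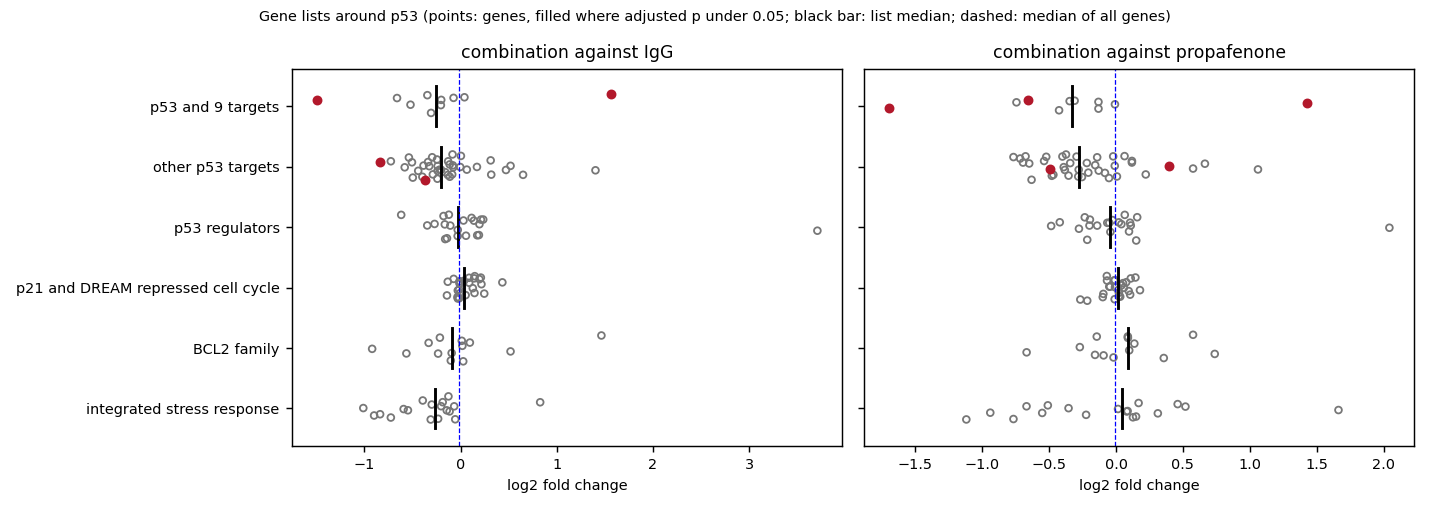
edgeR log2 fold changes of the genes of 6 lists in combination against IgG and against propafenone, with 1 point per gene, filled red where the adjusted p was under 0.05, a black bar at the list median and a dashed line at the median of all genes. The median of the other p53 targets lies at -0.20 and -0.28, and that of the cell cycle list at 0.04 and 0.02.

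The BCL2 family, which holds the apoptotic partners of Bax and Bbc3, had 13 of 14 genes tested in combination against IgG, 6 above and 7 below 0 with a median of -0.09 and none past the test. Bad, a BH3-only protein, was at -0.33 ± 0.10 (adjusted p = 0.052, edgeR), with 24.9 ± 2.13 CPM in combination tumours and 31.4 ± 2.27 in IgG tumours. Bcl2a1b, an anti-apoptotic member of leukocytes with near-identical copies that could share its reads, was at 1.47 ± 0.44 (adjusted p = 0.0585). Hrk, the untested gene, had at most 7 counts in any tumour.

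The integrated stress response, another route by which Gdf15 and Bbc3 are induced, had 17 of 18 genes below 0 in combination against IgG, with a median of -0.27 and none past the test (15 of 18 and -0.19 with library totals). Ddit4, an inhibitor of mTORC1 that is also a p53 target, was at -0.72 ± 0.23 (adjusted p = 0.0649, edgeR), with 77.1 ± 7.09 CPM in combination tumours and 127 ± 24.6 in IgG tumours. Trib3, a pseudokinase induced by ATF4 and CHOP, was at -0.84 ± 0.33 (adjusted p = 0.136), with 71.0 ± 6.91 CPM in combination tumours and 127 ± 38.3 in IgG tumours. For propafenone against IgG 13 of the 18 were below 0, with a median of -0.28, and against propafenone the combination had 8 below and 10 above 0 with a median of 0.05. The lists were set up with earlier results of these data known, and their counts are descriptions.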

How the data were processed

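Gene counts and TPM of 20 tumours were taken as deposited. The deposited gene counts were handled under the unit expected counts, meaning the authors' estimated reads per gene, here whole numbers without scaling. Low values favoured 4 and 8, and how many counts stand for 1 fragment is not known. TPM, an abundance per length made by the authors, served for levels between genes and as an alternative. The submitters' processing notes list HISAT2 2.2.1 and SAMtools 1.9 beside FastQC, with GRCm38 and mm10 as builds, and the labels name a SMARTER mRNA kit. Which program counted reads, on which annotation and with which strand option, is not given in the sources used here. Coordinates come from GENCODE mouse release M21, in which 32158 of 32285 identifiers were found, and upstream sequences from RefSeq on GRCm38.p6. No entry was held for Zmat3.

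The test was edgeR 4.0.16 under R 4.3.3, with TMM scaling, the filterByExpr filter and a robust quasi-likelihood fit. All 20 libraries entered it with a mean for each group, which left 16 residual degrees of freedom. Past the filter were 15875 genes with 99.98% of the counts, and the common biological coefficient of variation was 0.252. A gene was called at a Benjamini-Hochberg adjusted p under 0.05 over these genes. Standard errors are the absolute log2 fold change over the root of the F statistic. Exact two-sided permutation tests over 5 against 5 tumours have 252 assignments. Correlations used log2 CPM with group means removed and 100000 permutations within groups. Values without the farthest tumours kept the group means of all tumours. A list score is the mean over its genes of centred log2 CPM. Alternatives were limma 3.58.1 (voom, and log2 of TPM plus 1 or 0.1), DESeq2 1.42.0, other scalings and filters, counts divided by 4, covariates, a replicate block and left-out libraries. The code was tested on simulated data.

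Named are the 10 genes and, from each other list, up to 4 genes past the threshold in each direction in combination against IgG, or otherwise the 2 smallest p as values, and the 5 genes most like Cdkn1a and Trp53. The members and lists were chosen with earlier results of these data known, and the correlations with list scores were added after their values were seen.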

Additional observations from a re-analysis of the deposited data

Results flagged for a closer look

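Each of the 10 genes was checked in each of the 4 groups for a tumour far from the others, 40 checks in all, of which chance alone would flag about 1 in 20. In 1 case the gap was large: propafenone 1 had 1.81 CPM of Gdf15, the highest of its group, and the nearest other propafenone tumour had 1.45 CPM. The gap was 0.762 of the group's whole range, above the critical value of 0.71 for 5 samples. No result on Gdf15 passed a test in any comparison.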

How the results depend on the processing

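For the 10 genes in 6 contrasts (5 comparisons and the interaction) 2080 alternative values were computed. Of these, 1974 kept their side of the threshold, 83 fell short of it and 23 newly passed it. None turned the direction of a called value, while 96 values changed sign without any call. The exact permutation tests are among these values and were judged by their unadjusted p, a looser threshold than the adjusted p of the fits. In combination against IgG, with 2 genes called, DESeq2 called 4 and the fit of only the groups compared 5. With limma voom Cdkn1a alone was called. DESeq2 size factors, library totals, no filter, the stricter filter and both TPM fits each called Eda2r alone, so that Cdkn1a lost its call there. The muscle and macrophage covariates called 0. Without 1 tumour the count ran from 0 to 3. In combination against propafenone, with 3 called, library totals and log2(TPM + 1) called Cdkn1a alone. The muscle covariate and the fit of only the groups compared called Ccng1 alone. No filter, log2(TPM + 0.1) and the macrophage covariate called 0, and without 1 tumour the count ran from 0 to 6. The replicate numbers did not pair the libraries (30 same-number pairs, mean correlation -0.00863, range -0.365 to 0.305, and 6 of 20 libraries closest to their own number), and the replicate block called 2 and 3 genes in these 2 comparisons. In the other 3 comparisons and the interaction 0 of the 10 genes were called as reported and under each alternative. Of the correlated pairs 17 passed, 16 with TPM, and 6 without the 2 farthest tumours. Over all genes, combination against IgG had 356 higher and 418 lower; the fit of only the groups compared called 852 and 934, DESeq2 793 and 626, no filter 227 and 236, and the muscle and macrophage covariates 7 and 0 genes in all. Eda2r, Gdf15 and Bbc3 had the fewest counts, which limits their precision.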
